A study of Mus musculus with 18 samples.

Results

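The comparison of isoproterenol (ISO) with sham in C57BL/6 mice rested on 6 of the 18 RNA-seq libraries of the series, taken by their titles: 4 from ISO hearts, of which 2 were of day 14 and 2 of day 21 after pump implantation, and 2 from sham hearts. ISO, an agonist of beta-adrenergic receptors, reached the mice from implanted pumps, and sham hearts had saline. No day is given for sham, so both days of ISO were set against the same 2 sham libraries. All 6 libraries hold C57BL/6 cells of the heart sorted for Thy1, a surface protein of cardiac fibroblasts; the labels write the population as Thy1+ HE cells or as Thy1+HE- cells without spelling out HE, and they give neither age nor genetic modification. The other 12 libraries, of C3H/HeJ and KK/HlJ mice in the same conditions, entered the fit and 1 comparison of responses. By its title the study asked whether cardiac fibroblasts of different genetic backgrounds differ in their behaviour after ISO injury. Nothing in the labels tells whether a library holds cells of 1 heart or of pooled hearts. The p-values below thus describe the spread among libraries, and that spread may be technical. It was estimated over all 18 libraries, where the common dispersion was 0.736, against 0.429 in the C57BL/6 libraries alone.

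Cardiac fibroblasts maintain the collagen and elastic matrix of the heart. After injury or sustained beta-adrenergic stimulation, part of them become activated: they secrete matricellular proteins such as periostin, growth factor binding proteins and new matrix. Beta-adrenergic receptors act through the stimulatory G protein, adenylyl cyclases and cyclic AMP, and receptor kinases and arrestins silence them.

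The 4 ISO libraries held 16565460 and 14649066 counts at day 14 and 10453121 and 14871905 counts at day 21, against 25356498 and 24748674 counts in the 2 sham libraries, which were the deepest of the 6. Replicate libraries correlated over genes at 0.883 at day 14, 0.885 at day 21 and 0.941 in sham on the log2 scale, and each pair differed by more than counting noise (chi-square over degrees of freedom of 66.5 to 75.5). Levels below are counts per 1000000 (CPM), with edgeR's effective library sizes as totals. A gene's levels are given for ISO day 14 replicates 1 and 2, ISO day 21 replicates 1 and 2, and then sham replicates 1 and 2. Thy1, the sorting marker, stood at 332.8, 290.8, 134.9 and 341.1 CPM in ISO libraries and at 356.8 and 243.1 CPM in sham libraries. Pdgfra, a growth factor receptor of cardiac fibroblasts, stood at 520.2 to 603.6 CPM in ISO and at 524.8 and 753.2 CPM in sham, and Tcf21, a transcription factor of these cells, at 258.4 to 504.4 CPM in ISO and at 362.6 and 349.9 CPM in sham. These markers were thus present in every library and their groups overlapped. Markers of other cells were present at unlike levels, given here as summed CPM by total counts. The 23 endothelial markers ran from 783.5 to 1328.6 in ISO and were 1319.7 and 1591.7 in sham. The 22 macrophage and monocyte markers had 11.2 to 52 in ISO and 19.1 and 27.5 in sham. Far above these stood the 22 pericyte and smooth muscle markers, with 2041.2 to 7414.8 in ISO and 9362.5 and 5655.3 in sham. The T and B cell markers Cd3d and Ms4a1 were among those at no more than 3 counts per library.

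No gene of the 15762 tested passed an adjusted p of 0.05 between ISO and sham in C57BL/6 (percent called 0; edgeR's quasi-likelihood test, Benjamini-Hochberg adjustment over all genes), and the same count of 0 was found for ISO day 14 against sham, for ISO day 21 against sham and between the days. At an unadjusted p under 0.05 the pooled comparison had 339 genes (2.15%), of which 38 (0.241%) were higher and 301 (1.91%) lower in ISO; day 14 had 173 (1.1%) and day 21 had 326 (2.07%). Without any test, the 4 ISO libraries lay above both sham libraries for 496 genes (3.15%) and below both for 1015 genes (6.44%). Neither of these shares exceeds what an arbitrary choice of 2 sham libraries among the 6 would give on average. The 2.15% of edgeR's fit is likewise under the share that a threshold of 0.05 passes when no gene differs. In the pooled comparison DESeq2 had 260 genes of 15762 at such a p, also under that share, and limma voom 1190, above it. EdgeR with the C57BL/6 libraries alone had 471 of 13862, under it. For day 21 DESeq2 had 472, under it, while limma voom had 1455 and the C57BL/6 libraries alone 859, above it. Such counts turned on the tool and libraries used, and alone are no evidence of a response. The median log2 fold change over all genes was -0.06 for both days, -0.03 for day 14 and 0.00 for day 21. Other tools called a few genes in the pooled comparison. DESeq2 called 5 (3 higher, Postn and Pamr1 among them; C1qa and Sox18 lower), limma voom called 1 (Postn), and edgeR without a filter on low counts called 8 (2 higher, Postn among them; 6 lower, Agap2, Flt1, Itga7, Kcnj8, Notch3 and Vtn). Leaving out 1 library changed the calls as well: without sham replicate 1 there were 3 (Dbp, Nr1d1 and Nr1d2, all higher), without sham replicate 2 there were 9 (1 higher, 8 lower), without ISO day 14 replicate 2 there were 7 (2 higher, 5 lower), without ISO day 21 replicate 2 there was 1, and without either of the others there were 0. What follows is therefore given library by library, and "higher" or "lower" describes the levels and is no call.

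The 11 genes named as higher, and the 12 named as lower, are among those of smallest p among genes that average at least 5 CPM in the higher group and have every ISO library on the same side of both sham libraries; that the groups do not overlap is thus the rule and no result. Postn, the matricellular protein periostin of activated fibroblasts (chromosome 3, 54361109 to 54391037 on mm10), had 2013.3, 1338.9, 1002.8 and 732.4 CPM in ISO libraries and 424.1 and 297.0 CPM in sham libraries. Every ISO library exceeded both sham libraries, and day 14 exceeded day 21. The mean was 3.53 times as high in ISO (1271.9 ± 553 CPM, SD, 4 libraries) as in sham (360.6 ± 89.9 CPM, SD, 2 libraries), the log2 fold change was 1.74 (SE 0.363) for both days, 2.22 for day 14 and 1.27 for day 21, and edgeR's adjusted p was 0.864. Pamr1, a secreted protein related to proteases (chromosome 2, 102550012 to 102643041), had 233.3, 280.8, 237.6 and 344.0 CPM in ISO libraries and 118.6 and 115.7 CPM in sham libraries, which gave log2 fold changes of 1.22 for both days, 1.13 for day 14 and 1.31 for day 21. Postn kept a log2 fold change between 1.51 and 2.02 and Pamr1 between 1.07 and 1.34 over 20 alternatives, and their adjusted p ran from 0.00106 to 1 and from 0.00948 to 1.

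Further matrix genes stood apart between the groups by smaller factors. Cilp, a secreted protein known from cartilage and fibrotic heart, had 692.6, 448.9, 471.4 and 517.6 CPM in ISO libraries and 191.0 and 269.5 CPM in sham libraries (log2 fold change 1.21, day 14 1.31, day 21 1.10). Ltbp2, a microfibril-associated protein of the latent TGF-beta binding family, had 184.3, 220.6, 103.4 and 132.2 CPM in ISO libraries and 75.6 and 67.8 CPM in sham libraries (log2 fold change 1.11 for both days, 0.72 for day 21). Sfrp2, a secreted modulator of Wnt signalling, had 77.9, 93.3, 45.6 and 68.1 CPM in ISO and 35.5 and 28.5 CPM in sham. Ltbp2 and Sfrp2 thus stood nearer to sham at day 21 than at day 14, as Postn did, and edgeR's test called none of these differences between days. Ccn2, a matricellular protein known as connective tissue growth factor, rested on 1 library: 2368.0 CPM in ISO day 14 replicate 1, 630.4, 846.0 and 558.4 CPM in the other ISO libraries, and 415.6 and 461.7 CPM in sham. Its log2 fold change was 1.23, and 0.60 without that library. Mfap5, a microfibril glycoprotein, had 1469.1 to 2795.6 CPM in ISO and 1193.0 and 1250.0 CPM in sham. Ctsk, a collagen-degrading cathepsin, had 110.4 to 212.3 CPM in ISO and 96.1 and 81.2 CPM in sham. Serpina3n, a secreted protease inhibitor, had 158.5 to 227.0 CPM in ISO and 76.1 and 131.8 CPM in sham, and Gxylt2, a xylosyltransferase, had 81.2 to 157.5 CPM in ISO and 53.7 and 73.6 CPM in sham. In these 4 genes the lowest ISO library stood close to the higher sham library. S100a4, a calcium-binding protein of motile cells, went the other way in time: 31 and 35.9 CPM at day 14, 90 and 56.3 CPM at day 21, and 14.8 and 21.4 CPM in sham (log2 fold change 0.88 at day 14 and 2.01 at day 21).

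**Figure D1:**
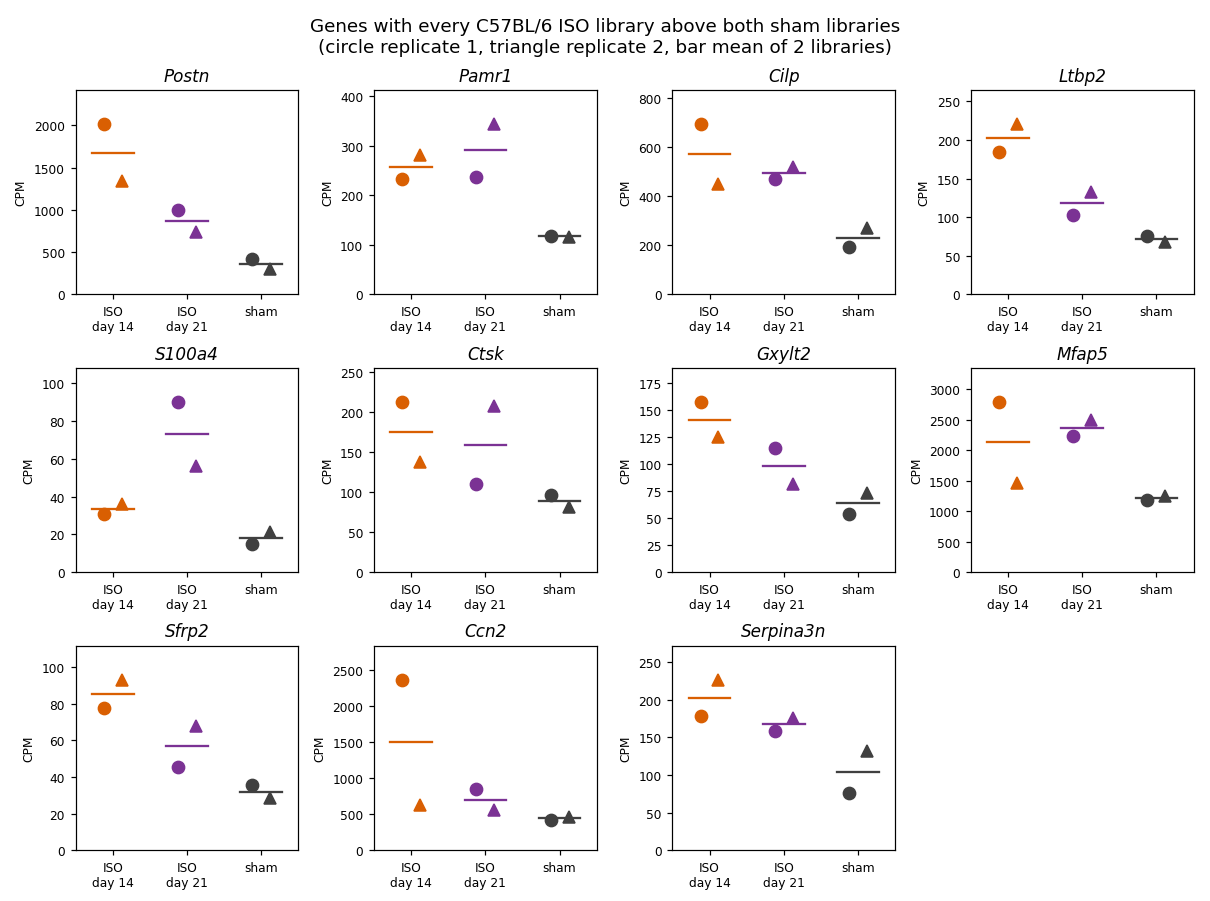
Levels in CPM (linear axes from 0) of the 11 genes named as higher, by C57BL/6 library: ISO day 14, ISO day 21 and sham, with circles for replicate 1, triangles for replicate 2 and bars for the mean of 2 libraries. Each ISO library lies above both sham libraries; Postn at day 21 (1002.8 and 732.4 CPM) lies between day 14 and sham, and Ccn2 has 1 high library (2368.0 CPM).

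Of 34 activated fibroblast and matricellular genes, all tested, 33 had a log2 fold change above 0, 14 had an unadjusted p under 0.05 in the higher direction and none in the lower, and 19 lay above sham in every ISO library, beside 0.241% and 3.15% of all genes for those 2 measures. The list's median log2 fold change was 1.01 for both days, 0.97 for day 14 and 0.73 for day 21, and leaving out any 1 library gave medians between 0.90 and 0.98. The list holds 6 genes that earlier results of these same libraries had called over all strains (Postn, Ltbp2, Sfrp2, Serpina3n, Cilp and Pamr1), so its direction is not independent evidence. Over its other 28 members, 8 had an unadjusted p under 0.05, 13 lay above sham and the median was 0.83. The whole list was chosen with earlier results of these data known, so these 28 are not independent evidence either. Tnc, the matricellular protein tenascin C, had 38, 42.5, 29.2 and 11.8 CPM in ISO libraries and 7.3 and 9.75 CPM in sham libraries. Timp1, an inhibitor of matrix metalloproteinases, had 333.4, 222.7, 192.5 and 248.6 CPM in ISO libraries and 99.3 and 92.7 CPM in sham libraries. Both stood apart from sham at each day. Thbs4, a thrombospondin, had 55.6 to 90.4 CPM in ISO and 19.1 and 22 CPM in sham; Comp, of the same family, 182.7 to 339.4 CPM in ISO and 153.9 and 164.2 CPM in sham; Prg4, the lubricating proteoglycan lubricin, 65.8 to 88.5 CPM in ISO and 39.7 and 40.6 CPM in sham; and Cthrc1, a secreted collagen triple helix protein, 4.59 to 17.1 CPM in ISO and 0.879 and 2.29 CPM in sham. The summed level of the list by total counts was 24110.2, 18404.0, 15731.1 and 16446.6 CPM in ISO libraries and 12354.3 and 11076.4 CPM in sham libraries.

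Collagens had a higher median at day 14 than at day 21. Of 13 genes tested in the list of fibrillar and fibril-associated collagens, 11 had a log2 fold change above 0. The list also holds short-chain collagens, and 1 of these, Col8a1, was its only member with an unadjusted p under 0.05. The median of the 13 was 0.37 for both days, 0.75 for day 14 and 0.10 for day 21. Col3a1, the chain of type III collagen, had 14779.2 and 10757.1 CPM at day 14, 3636.0 and 7157.7 CPM at day 21, and 6126.2 and 4466.0 CPM in sham. Both day 14 libraries exceeded sham, while day 21 overlapped it, and the log2 fold change was 1.27 at day 14 and 0.03 at day 21 (day 21 over day 14 -1.24, edgeR's unadjusted p 0.0255, adjusted p 0.903; 542 genes, 3.44%, had an unadjusted p under 0.05 between days). Col1a1, a chain of type I collagen, had 4652.7, 4515.6, 2030.4 and 4331.5 CPM in ISO libraries and 3354.3 and 2590.6 CPM in sham libraries, so that the groups overlapped through ISO day 21 replicate 1 alone. Col8a1, a short-chain collagen, was uneven within each day: 504.6 and 192.8 CPM at day 14, 452.5 and 158.3 CPM at day 21, and 129.4 and 147.6 CPM in sham. Other matrix lists had smaller medians. Of all genes, 0.241% were higher and 1.91% lower at an unadjusted p under 0.05. Of 20 elastic fibre and microfibril genes 2 had an unadjusted p under 0.05, both higher (Ltbp2 and Mfap5; median 0.18); of 24 proteoglycans 1, Prg4 (median 0.28); of 25 matrix proteases and inhibitors 2, Ctsk and Timp1 (median 0.07); and of 23 collagen processing and crosslinking enzymes 0 (median 0.12). Of 28 TGF-beta pathway genes 2 had such a p, Ltbp2 and Ccn2 (median 0.12), and of 31 Wnt pathway genes 1, Sfrp2 (median 0.19).

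The 30 resting fibroblast genes had a median of 0.12, with 2 members higher and 2 lower at an unadjusted p under 0.05. Of all genes these shares were 0.241% and 1.91%. Cxcl14, a chemokine of this list, had 106.6, 126.1, 117.4 and 296.8 CPM in ISO libraries and 317.6 and 335.8 CPM in sham libraries (log2 fold change -1.07, SE 0.448), with ISO day 21 replicate 2 close to sham. Ly6a, a surface marker of progenitor-like fibroblasts, stood above sham in each ISO library at 897.2 to 1634.1 CPM, against 858.8 and 754.9 CPM. Acta2, the smooth muscle actin of myofibroblasts and mural cells, had 295.3, 1111.6, 484.4 and 190.4 CPM in ISO libraries and 901.2 and 416.7 CPM in sham libraries. Its groups overlapped widely, its log2 fold change was -0.44 (SE 0.507), and this became 0.22 without sham replicate 1. The 24 contractile genes had a median of -0.29 (0.15 at day 14, -0.73 at day 21, and -0.05 for both days without sham replicate 1), and the 2 with an unadjusted p under 0.05 were Des and Myocd, both lower.

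The 12 genes named as lower began, in order of p, with Itga7, Agap2, Sipa1 and Vtn. Itga7, a laminin-binding integrin of muscle and mural cells (chromosome 10, 128933818 to 128958282), had 97, 211.8, 97.6 and 83.8 CPM in ISO libraries and 420.3 and 233.8 CPM in sham libraries. The highest ISO library came close to the lower sham library, and the log2 fold change was -1.47 (SE 0.357), with -1.08 at day 14 and -1.85 at day 21. Vtn, the adhesion protein vitronectin, which cardiac pericytes express (chromosome 11, 78499091 to 78502324), had 95.8, 354.1, 197.1 and 108.0 CPM in ISO libraries and 709.3 and 366.0 CPM in sham libraries (log2 fold change -1.54, SE 0.428; day 14 -1.26, day 21 -1.82). Kcnj8, the potassium channel subunit Kir6.1 of pericytes and smooth muscle, had 115.0, 368.9, 218.1 and 156.7 CPM in ISO libraries and 738.2 and 456.7 CPM in sham libraries. In these genes ISO day 14 replicate 2 was the ISO library nearest to sham. Agap2, a GTPase-activating protein, had 11.9, 20.8, 4.67 and 9.84 CPM in ISO libraries and 116.9 and 28.1 CPM in sham libraries, and its log2 fold change of -2.73 (SE 0.654) was the largest in size of the 12 lower genes. It was -1.37 without sham replicate 1. Plxnd1, a semaphorin receptor, was the most even of the lower genes within sham, with 21.7, 31.2, 15.6 and 35.4 CPM in ISO libraries and 68.3 and 66.2 CPM in sham libraries (log2 fold change -1.37). Adcy6, an adenylyl cyclase of the beta-adrenergic pathway, had 97.8, 144.3, 63.5 and 91.1 CPM in ISO libraries and 244.1 and 166.7 CPM in sham libraries (log2 fold change -1.09, day 14 -0.76, day 21 -1.41). The others were Sipa1, Rasl11a, Sept4, Ptprk, Cdc42ep4 and Gimap6, with log2 fold changes between -1.86 and -0.97. Each of the 23 genes named as higher or lower had an adjusted p of 0.864 or above. Over 20 alternatives none of them changed sign. Since the rule put every ISO library on the same side of both sham libraries, this follows from the choice and is no support.

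**Figure D2:**
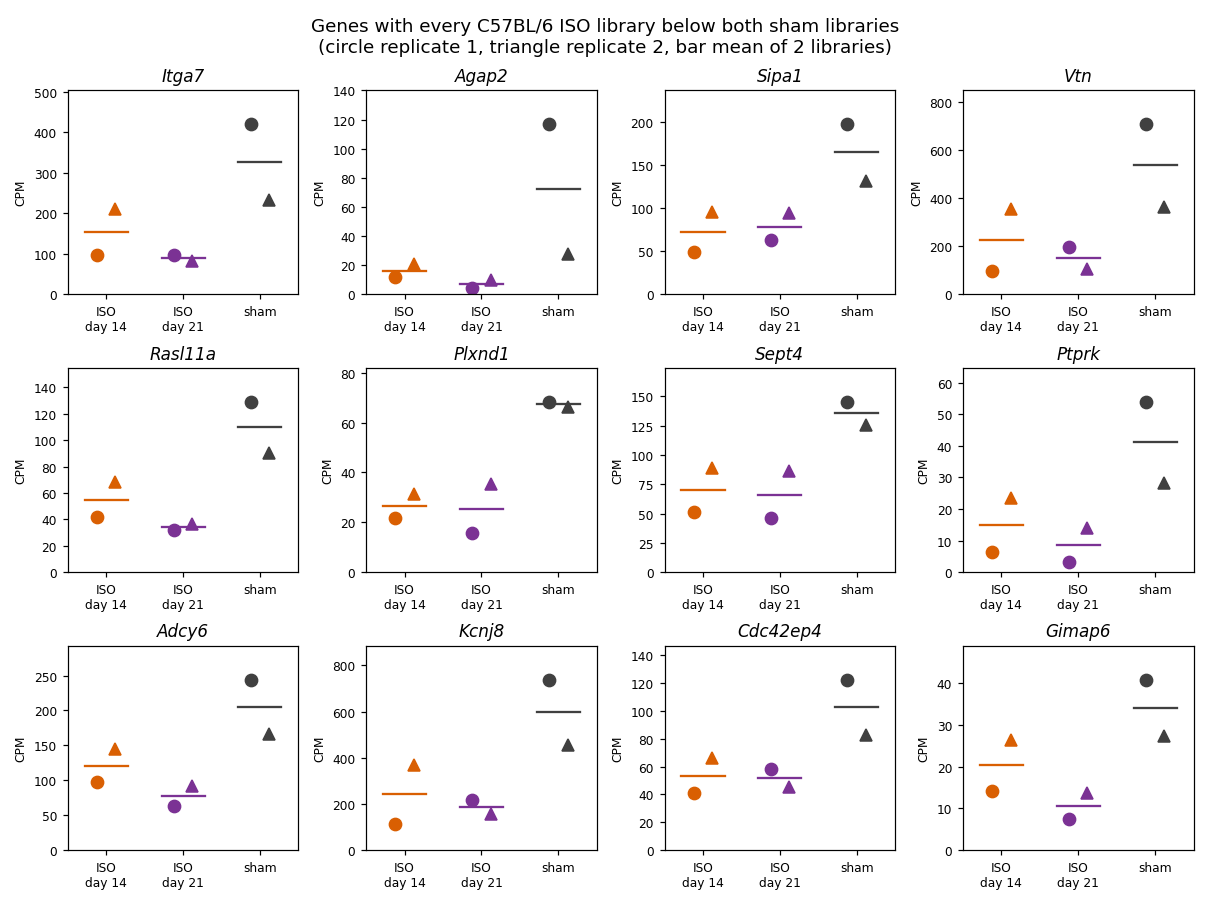
Levels in CPM (linear axes from 0) of the 12 genes named as lower, by C57BL/6 library, with circles for replicate 1, triangles for replicate 2 and bars for the mean of 2 libraries. Each ISO library lies below both sham libraries, sham replicate 1 lies above sham replicate 2 in all 12 panels, and ISO day 14 replicate 2 is the highest ISO library in 11 of 12.

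Which library was high within a group was shared by the lower genes. Sham replicate 1 exceeded sham replicate 2 in 12 of 12, and ISO day 14 replicate 2 was the highest ISO library in 11 of 12. Among all 1015 genes with every ISO library below sham, these counts were 695 and 238, and among the 11 named as higher sham replicate 1 exceeded replicate 2 in 5. The pericyte and smooth muscle markers had the same order: their summed CPM by total counts were 2490.6, 7414.8, 3992.1 and 2041.2 in ISO libraries and 9362.5 and 5655.3 in sham libraries. In the other 12 libraries of the series this sum ran from 2509.8 to 4756.8. Both C57BL/6 sham libraries, and ISO day 14 replicate 2, were thus above all of those. Of the 22 markers 21 had a log2 fold change below 0, 9 had an unadjusted p under 0.05, all lower, and 4 (Vtn, Kcnj8, Steap4 and Colec11) lay below sham in every ISO library, beside 1.91% and 6.44% of all genes. Their median log2 fold change was -1.01 for both days, -0.61 for day 14 and -1.44 for day 21. It was -0.54 without sham replicate 1, with 3 members at an unadjusted p under 0.05, and -1.60 without ISO day 14 replicate 2, with 15. Pdgfrb, a growth factor receptor of pericytes, had 393.7, 687.7, 245.0 and 323.5 CPM in ISO libraries and 1027.8 and 540.4 CPM in sham libraries, and Rgs5, a regulator of G-protein signalling in pericytes, had 623.2, 1546.6, 1038.4 and 415.9 CPM in ISO libraries and 1890.2 and 1479.2 CPM in sham libraries. Both overlapped between the groups through ISO day 14 replicate 2. In sorted bulk samples, fewer cells of a type and less RNA per cell cannot be told apart, and the part of these cells in the lower genes was not tested.

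ISO acts through the beta-adrenergic pathway. Of 41 genes of that pathway tested, 3 had an unadjusted p under 0.05, all lower (Adcy6, Adcy5 and Arrb1), beside 1.91% of all genes. The median log2 fold change was -0.13 for both days, 0.09 for day 14 and -0.48 for day 21, beside -0.06, -0.03 and 0.00 over all genes. Without sham replicate 1 no member had such a p and the median was 0.01. Adrb1, the beta-1 receptor, was found in 1 ISO library at 0.0693 CPM and in 1 sham library at 0.191 CPM, which is at or under 3 counts per library on average. Arrb1, the arrestin that uncouples these receptors, had 114.5, 139.1, 107.4 and 130.3 CPM in ISO libraries and 179.3 and 193.6 CPM in sham libraries, below sham in each library (log2 fold change -0.60, SE 0.283). Adcy5, another adenylyl cyclase, had 13.2, 31.7, 13.6 and 6.65 CPM in ISO libraries and 54.9 and 27.5 CPM in sham libraries. Adcy5 and Adcy6 too were highest in sham replicate 1 and, among ISO libraries, in day 14 replicate 2. Of 27 vasoactive receptors 3 had an unadjusted p under 0.05, all lower, beside the same 1.91% of all genes. They were Adora2a, an adenosine receptor (6.65, 22.2, 15.9 and 5.82 CPM in ISO, 47.1 and 30.6 CPM in sham), S1pr3, a sphingosine phosphate receptor, and Ednra, an endothelin receptor.

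Immediate-early genes, transcription factors that respond within minutes to stimuli and to tissue dissociation, had a median below that of all genes. Of 24 tested, 19 had a log2 fold change below 0, 2 (Jun and Fosb) had an unadjusted p under 0.05 and 5 (Jun, Jund, Egr1, Atf3 and Fos) lay below sham in every ISO library, beside 1.91% and 6.44% of all genes; the median was -0.39 for both days, -0.24 for day 14 and -0.56 for day 21, and between -0.57 and -0.28 when any 1 library was left out. Jun, a subunit of AP-1, had 948.9, 830.9, 650.5 and 1070.1 CPM in ISO libraries and 1401.5 and 1769.5 CPM in sham libraries (log2 fold change -0.86, SE 0.301). Fosb, its partner, had 3067.7, 2393.3, 964.3 and 1822.3 CPM in ISO libraries and 4737.3 and 2572.8 CPM in sham libraries. The 24 genes summed to 22174.2, 22150.0, 15119.0 and 20991.7 CPM by total counts in ISO libraries and 30152.1 and 26287.3 CPM in sham libraries, so that these groups did not overlap. The labels do not give the dissociation time of each library, and its part was not tested. Irs2, an insulin receptor substrate, was lower at day 21 than at day 14: 115.3 and 100.5 CPM at day 14, 25 and 25.8 CPM at day 21, and 163.2 and 70.7 CPM in sham. Day 21 lay below both sham libraries and day 14 between them, and DESeq2 called Irs2 for day 21 against sham (day 21 over day 14 -2.09, edgeR's unadjusted p 0.000166, adjusted p 0.816).

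Genes of mitosis and replication were at low levels throughout. Of 30 tested, 9 lay above sham in every ISO library and 1 below, beside 3.15% and 6.44% of all genes, and 0 had an unadjusted p under 0.05. The median was 0.57 for both days, 0.95 for day 14 and 0.76 for day 21. It was 1.31 without sham replicate 1, 0.88 without sham replicate 2 and 0.32 without ISO day 14 replicate 1. Only 8 members averaged at least 5 CPM over the series, and with that filter the median for both days was 0.23. Ube2c, a ubiquitin-conjugating enzyme of mitosis, had 5.59, 5.52, 6.53 and 4.99 CPM in ISO libraries and 0 and 0.191 CPM in sham libraries. Mcm6, a subunit of the replicative helicase, had 58.8, 64.9, 43.5 and 39.1 CPM in ISO libraries and 34.1 and 32.9 CPM in sham libraries. Mki67, the proliferation marker Ki-67, had 4.89, 0, 5.38 and 6.51 CPM in ISO libraries and 0 and 1.61 CPM in sham libraries, and so overlapped between the groups. The 30 genes summed to 214.9 to 272.2 CPM by total counts in ISO and to 180.3 and 166.2 CPM in sham.

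**Figure D3:**
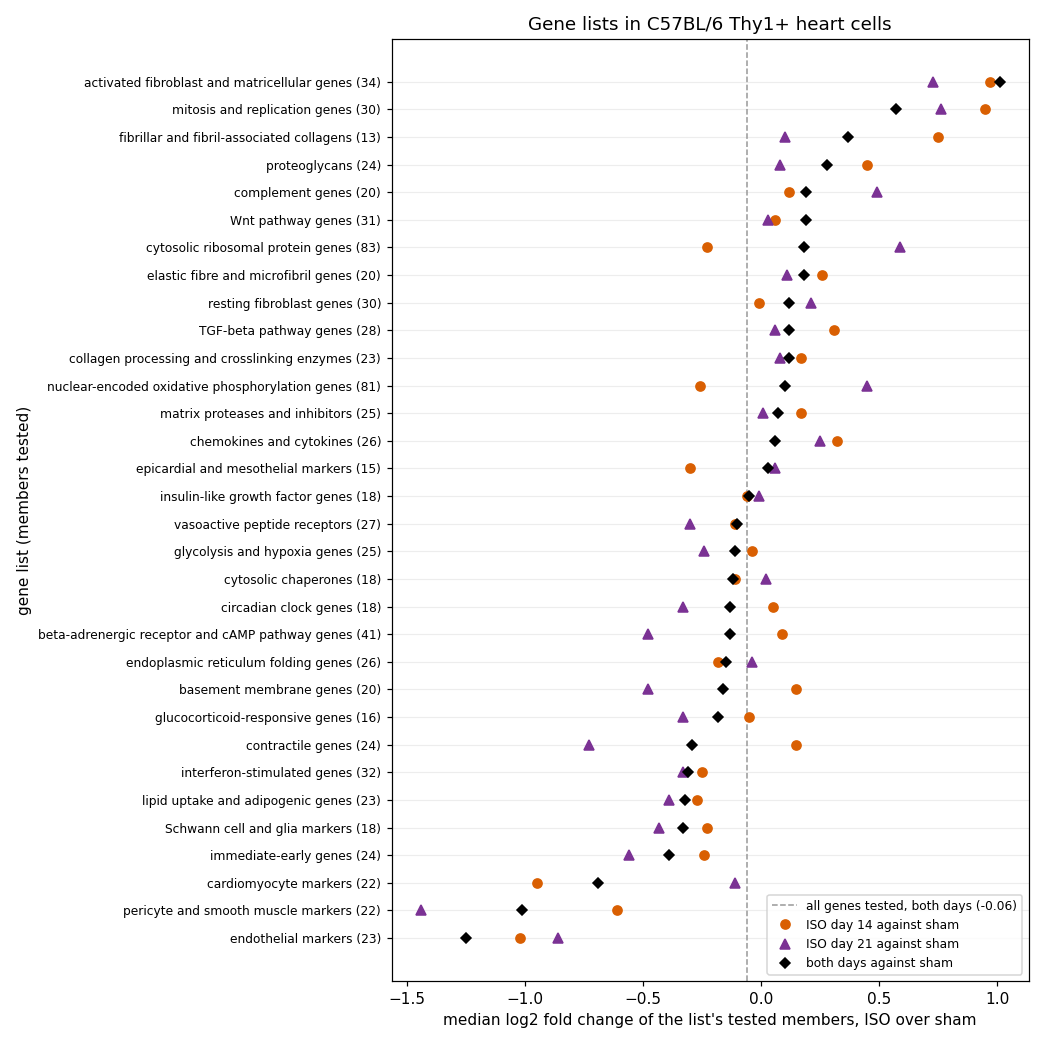
Median log2 fold change of ISO over sham in C57BL/6 for each gene list, with the number of members tested, for both days (diamonds), day 14 (circles) and day 21 (triangles); the dashed line is the median of all genes, -0.06. Lists with fewer than 10 tested members, or whose median depends on members at 0 counts, are left out. Only 8 of the 30 mitosis and replication genes averaged at least 5 CPM over the series, and their median for both days was 0.23. For both days activated fibroblast genes stand highest (1.01) and pericyte markers (-1.01) and endothelial markers (-1.25, but -0.37 without sham replicate 2) lowest; at day 21 mitosis and replication genes (0.76) stand above activated fibroblast genes (0.73), and ribosomal protein genes stand on opposite sides of 0 at day 14 (-0.23) and day 21 (0.59).

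Genes of the circadian clock differed widely between the libraries of 1 group. In that clock Arntl and its partners Clock and Npas2 switch on outputs such as Dbp and Tef and the Per, Cry and Nr1d genes. Products of the Per, Cry and Nr1d genes then repress the loop, so that activators and outputs peak at opposite times of day. Dbp, a clock output transcription factor, had 102.6 and 391.6 CPM at day 14, 373.8 and 112.6 CPM at day 21, and 488.0 and 12.6 CPM in sham. The 2 sham libraries thus differed 38.7-fold, while the log2 fold change of ISO over sham was -0.03 (SE 1.57). Arntl had 51.3 and 6.1 CPM at day 14, 3.79 and 56.9 CPM at day 21, and 3.02 and 110.3 CPM in sham, the reverse order in each group. Nr1d1, a repressor of Arntl, had 127.6 and 306.2 CPM at day 14, 295.5 and 151.3 CPM at day 21, and 336.4 and 25.3 CPM in sham. Tef, Hlf, Nr1d2, Per2 and Per3 followed Dbp in 3 of 3 C57BL/6 groups, and Npas2 and Nfil3 ran against it in 3 of 3. In all 9 groups of the series, the library with more Dbp also had more Nr1d1 in 9, more Tef in 8, more Per2 in 8 and more Tsc22d3, a glucocorticoid-induced gene, in 8, while it had less Npas2 in 9 and less Arntl in 8. It had the higher pericyte marker sum in 7 of 9 groups and in 3 of 3 of C57BL/6. The labels used here give no time of day.

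How ISO compared with sham in these genes turned on which sham library was used. The 18 clock genes had a median log2 fold change of -0.13 (0.05 at day 14, -0.33 at day 21). At an unadjusted p under 0.05, 1 member, Cry2, was lower, beside 1.91% of all genes. Without sham replicate 1 the median was 1.12 and Dbp, Nr1d1 and Nr1d2 made up all 3 calls of the pooled comparison; without sham replicate 2 the median was -0.32. The 16 glucocorticoid-responsive genes had a median of -0.18, which was 0.32 without sham replicate 1 and -0.41 without sham replicate 2. Not every member turned: over 20 alternatives Hsd11b1 stayed between -0.92 and -0.57 and Nfkbia between 0.31 and 0.68. Fkbp5 and Zbtb16 were split between the sham libraries as Dbp was. In C57BL/6 the library with more Dbp had more Fkbp5 in 3 of 3 groups and more Zbtb16 in 2 of 3. Over the series this held in 6 of 9 groups for each gene. Fkbp5, a chaperone of the glucocorticoid receptor, had 53.8, 98.2, 92.8 and 34.6 CPM in ISO libraries and 192.2 and 42.9 CPM in sham libraries, and Zbtb16, a zinc finger transcription factor, had 29, 34.8, 12.8 and 19.6 CPM in ISO libraries and 104.9 and 6.08 CPM in sham libraries. Their log2 fold changes of -0.76 and -1.29 turned to 0.69 and 1.90 without sham replicate 1. For Postn, the library with more Dbp had the higher level in 4 of 9 groups of the series and in 2 of 3 of C57BL/6. The part of the clock state in the comparison of ISO with sham was not tested.

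**Figure D4:**
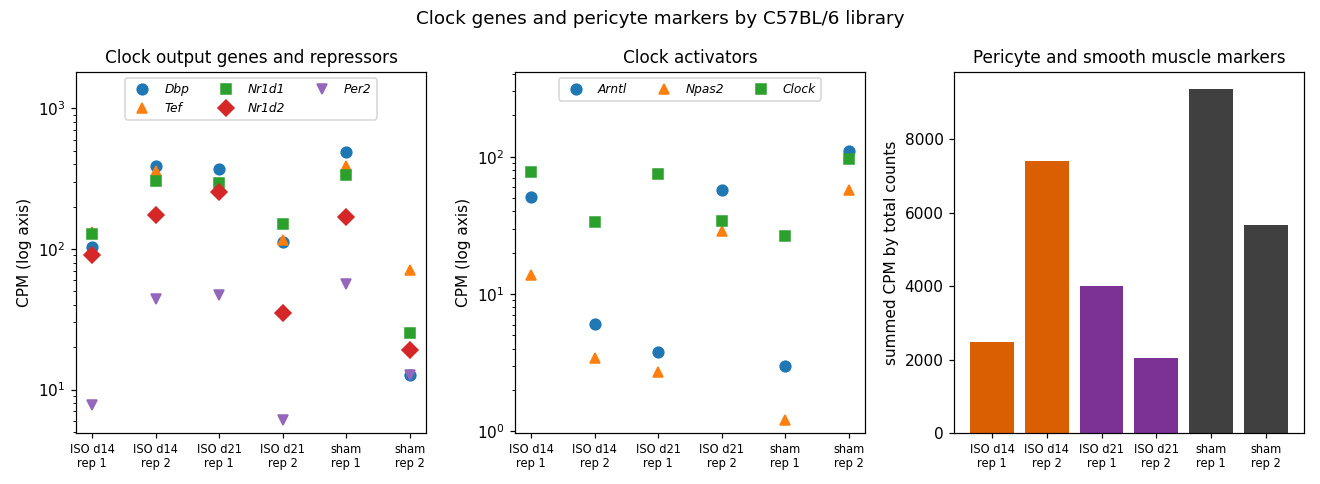
Levels in CPM (log axes) of clock outputs and repressors (left) and clock activators (middle), and the summed pericyte and smooth muscle markers in CPM by total counts (right, linear axis from 0), in each C57BL/6 library. Dbp is 488.0 CPM in sham replicate 1 and 12.6 CPM in sham replicate 2, Arntl runs the other way (3.02 and 110.3 CPM), and ISO day 14 replicate 2 (391.6 CPM) and ISO day 21 replicate 1 (373.8 CPM) have the more Dbp of their groups.

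Promoters are shown for genes of both patterns, from the RefSeq promoter sequences on GRCm38.p6, as the 250 bases before the transcription start; capitals mark motif matches on either strand. Postn and Vtn stand for the higher and lower genes, Per1 and Tef for the clock genes, where capitals mark the canonical E-box CACGTG that Arntl and its partners are known to bind. In Postn (chr3:54360857-54361106, plus strand) capitals mark TATAAA, 1 match. In Vtn (chr11:78498870-78499119, plus strand) they mark the TEAD motif GGAATG, the SMAD motif CAGACA (here on the minus strand) and TATAAA, which overlaps its own match on the other strand. Per1 lies at chr11:69098699-69098948 and Tef at chr15:81802423-81802672, both on the plus strand, each with 1 match.
Postn: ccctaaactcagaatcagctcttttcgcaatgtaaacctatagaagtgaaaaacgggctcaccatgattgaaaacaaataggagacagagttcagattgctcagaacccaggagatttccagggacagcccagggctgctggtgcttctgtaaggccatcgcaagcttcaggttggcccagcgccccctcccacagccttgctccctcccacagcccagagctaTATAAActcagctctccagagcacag
Vtn: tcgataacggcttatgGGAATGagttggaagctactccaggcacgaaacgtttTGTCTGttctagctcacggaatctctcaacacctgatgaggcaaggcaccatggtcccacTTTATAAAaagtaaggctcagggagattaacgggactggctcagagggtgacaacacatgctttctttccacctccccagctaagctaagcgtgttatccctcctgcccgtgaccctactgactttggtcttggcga
Per1: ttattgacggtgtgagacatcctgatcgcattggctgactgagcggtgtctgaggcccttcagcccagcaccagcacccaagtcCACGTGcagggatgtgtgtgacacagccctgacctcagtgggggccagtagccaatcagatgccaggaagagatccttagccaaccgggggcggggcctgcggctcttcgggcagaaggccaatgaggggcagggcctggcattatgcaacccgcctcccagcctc
Tef: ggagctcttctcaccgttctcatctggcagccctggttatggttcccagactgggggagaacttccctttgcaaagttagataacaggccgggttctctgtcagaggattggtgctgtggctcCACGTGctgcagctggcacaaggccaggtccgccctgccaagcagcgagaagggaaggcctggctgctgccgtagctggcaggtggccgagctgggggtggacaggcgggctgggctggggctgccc
Of the 11 higher genes 8 had a promoter in the RefSeq table, of the 12 lower genes 9, of the clock genes 16 and of all genes tested 11415; each was searched from 250 bases before to 50 bases after the start, on both strands. TATAAA was found in 25% of the higher and 22.2% of the lower genes' promoters and in 7.48% of all promoters. GGAATG was found in 0% of the higher, 33.3% of the lower and 12.3% of all, CAGACA in 25%, 22.2% and 15.9%, and the AP-1 motif TGANTCA in 0%, 0% and 4.98%. The general E-box CANNTG was found in 37.5%, 66.7% and 63.4%, and the cAMP response element half-site TGACG in 0%, 33.3% and 30.6%. CACGTG, which lies within CANNTG, was found in 31.2% of clock gene promoters (Bhlhe41, Ciart, Cry1, Per1 and Tef) and in 9.84% of all. With so few promoters these shares describe the genes and were not tested.

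Ribosomal protein and oxidative phosphorylation genes had higher medians at day 21 than at day 14. The 83 cytosolic ribosomal protein genes had a median log2 fold change of 0.18 for both days, -0.23 for day 14 and 0.59 for day 21, and the 81 nuclear-encoded oxidative phosphorylation genes had 0.10, -0.26 and 0.45. Summed by total counts, the ribosomal genes held 10740.2 and 15604.7 CPM at day 14, 24164.5 and 22824.2 CPM at day 21, and 14727.2 and 16673.6 CPM in sham, so that day 21 exceeded sham while day 14 was lower or within it. At an unadjusted p under 0.05 none of the 83 were higher and 1, Rpl3l, was lower, in the pooled comparison, beside 0.241% and 1.91% of all genes. Over all genes of at least 5 mean CPM, the median of day 21 over day 14 was 0.28 in the class with the shortest exon length and -0.20 in the class with the longest, and the part of transcript length in the difference was not tested. Many ribosomal genes share reads with near-identical copies, so their counts are uncertain; Rps6, which every cell uses, was listed at 0 to 5.07 CPM in ISO and at 0 and 0.688 CPM in sham.

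Smaller lists gave few or no members at an unadjusted p under 0.05, beside 0.241% of all genes higher and 1.91% lower. Interferon-stimulated genes had 0 of 32 (median -0.31), basement membrane genes 0 of 20 (median -0.16), lipid uptake and adipogenic genes 0 of 23 (median -0.32), glycolysis and hypoxia genes 0 of 25 (median -0.11) and complement genes 0 of 20 (median 0.19). Cytosolic chaperones had 1 of 18, Hspa1a, lower, endoplasmic reticulum folding genes 1 of 26, Hyou1, lower, and insulin-like growth factor genes 2 of 18, Irs2 and Igfbp2, both lower. Of the chemokines and cytokines 2 of 26 were lower, Cxcl14 and Cxcl9. Cxcl9, an interferon-induced chemokine, had no count in any ISO library and 0.879 and 1.53 CPM in sham. The endothelial markers had 1 of 23 higher and 3 lower with a median of -1.25 (-1.02 for day 14, -0.86 for day 21), which was -0.37 without sham replicate 2 and -1.54 without sham replicate 1. Sox17, an endothelial transcription factor, had no count in the 4 ISO libraries and 3.63 and 1.8 CPM in sham, at least 12.7-fold lower in ISO when set at 3 counts per library. Cardiomyocyte markers had 0 of 22 (median -0.69), Schwann cell and glia markers 0 of 18 (median -0.33), epicardial and mesothelial markers 0 of 15 (median 0.03) and glucocorticoid-responsive genes 0 of 16 (median -0.18), and 2 of 7 red blood cell markers, Hba-a1 and Alas2, were lower. The red blood cell markers summed to 27.8 to 43.4 CPM by total counts in ISO and to 16 and 77.9 CPM in sham. Their median was -2.29, and 1.73 without sham replicate 2.

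The response of C57BL/6 was set against the mean response of C3H/HeJ and KK/HlJ, each strain against its own sham. No gene of 15762 had an adjusted p under 0.05 for this difference (percent called 0; edgeR), and 762 (4.83%) had an unadjusted p under 0.05; DESeq2 called 10 and edgeR without a low-count filter 23. The median over all genes was -0.21. Of the 11 genes named as higher in C57BL/6, 10 had a log2 fold change above 0 in C3H/HeJ and 9 in KK/HlJ. For Postn it was 1.74 in C57BL/6, with 2.55 for C3H/HeJ and 2.21 for KK/HlJ, and for Cilp 1.21, 0.98 and 1.53. For S100a4 it was 1.45 in C57BL/6, with -0.46 for C3H/HeJ and -0.60 for KK/HlJ; this was the 1 gene of the 11 with an unadjusted p under 0.05 for the difference (edgeR's unadjusted p 0.00168, adjusted p 1). Of the 12 genes named as lower, all 12 were below 0 in C3H/HeJ but 7 in KK/HlJ. Of the same 12, 5 had an unadjusted p under 0.05 for the difference. Since these genes were chosen by their C57BL/6 values, which the difference uses again, such counts and p-values over them are a description and no test of a strain effect. Vtn was at -1.54 in C57BL/6, with -1.79 for C3H/HeJ and -0.39 for KK/HlJ, whereas Gimap6 was at -1.22, -0.03 and 0.75. The activated fibroblast list had a median of 1.01 in C57BL/6, with 0.79 for C3H/HeJ and 1.16 for KK/HlJ, and 1 of 34 members at an unadjusted p under 0.05 for the difference. Ribosomal protein genes were at 0.18 in C57BL/6, with -0.47 for C3H/HeJ and -0.55 for KK/HlJ, and 18 of 83 had such a p, and oxidative phosphorylation genes had 0.10, -0.68 and -0.51, with 19 of 81. Endothelial markers had a median of -1.25 in C57BL/6 (-0.37 without its sham replicate 2), with 0.69 for C3H/HeJ and a value above that for KK/HlJ, and 7 of 23 had such a p.

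**Figure D5:**
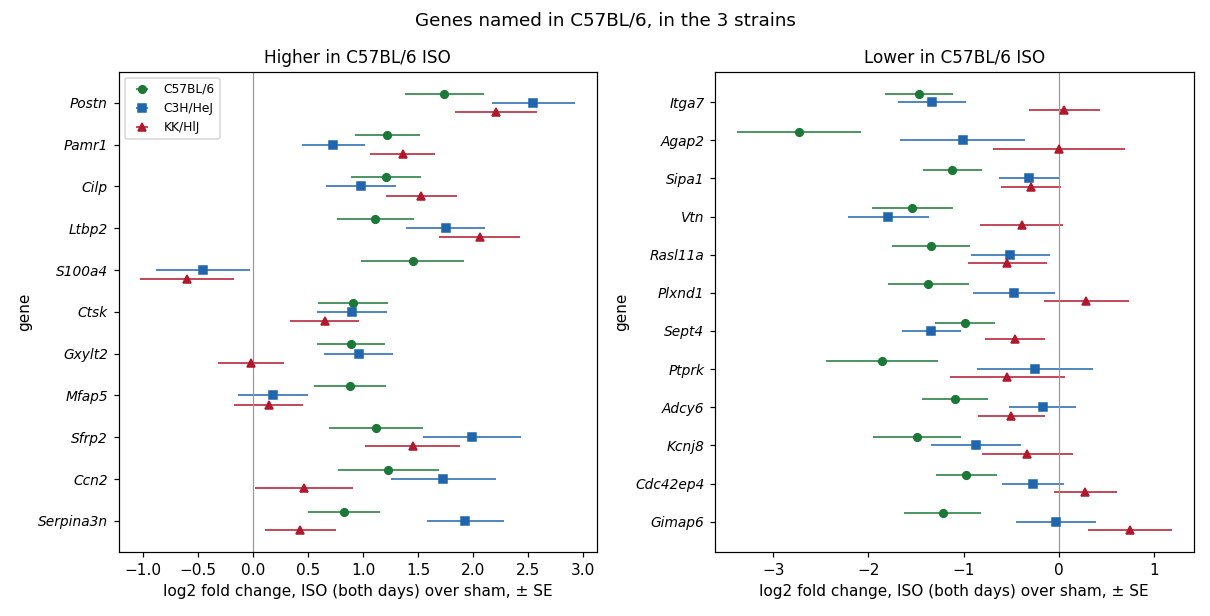
Log2 fold change of ISO (both days) over sham, with its SE, for the 23 named genes in C57BL/6 (circles), C3H/HeJ (squares) and KK/HlJ (triangles), each strain against its own sham libraries. Postn and Cilp lie above 0 in each strain, S100a4 only in C57BL/6 (1.45, against -0.46 and -0.60), and the lower genes, chosen for their C57BL/6 values, lie below 0 in C3H/HeJ.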

How the data were processed

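RNA-seq counts per gene were deposited by the authors for 18 libraries, not normalized; counts below are those deposited values. Per the labels' protocols, sorted cells went into TRIzol LS, libraries were made with a KAPA mRNA Hyperprep kit and read as single ends of 50 nt. Per the submitters' processing notes, FastQC, STAR 2.5.3a, edgeR and the mm10 build were used; the sources used here name no read counter, annotation release or strand setting, so reads of overlapping or antisense genes cannot be told apart. Of 53342 gene IDs, 53237 matched GENCODE M21, and the others held 0.0016% of reads.

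Totals ran from 7230741 to 26280685 counts per library. Genes with low counts were removed (edgeR's filterByExpr), which left 15762. The test was edgeR 4.0.16's robust quasi-likelihood test with TMM scaling in R 4.3.3, fitted to 9 groups of 2 libraries (9 residual degrees of freedom), with Benjamini-Hochberg adjustment over all genes. Both days were averaged as ISO with equal weight. The SE was derived from the log2 fold change and the F value. The test was run on simulated counts, but with less spread between replicates than in the real libraries (common dispersion 0.736 over all 18, 0.429 in C57BL/6 alone). That check therefore does not show how the test performs at the real spread. The comparisons of day 14, day 21 and both days share the sham libraries. Alternatives were DESeq2 1.42.0, limma 3.58.1 voom with quality weights, RLE scaling, other count filters, a replicate block, the C57BL/6 libraries alone, and each C57BL/6 library left out; leaving out libraries in the fit of C57BL/6 alone was added after seeing the data. Replicate numbers were taken from titles; same-numbered C57BL/6 libraries did not deviate together (correlations between -0.10 and 0.00 over 3 pairs of groups), so the numbers were not treated as pairs.

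The comparison, its members and the 35 gene lists were chosen with earlier results of these data known. Where fewer than 12 genes a direction were called, the places were filled by the smallest unadjusted p under the conditions given above; in each list up to 4 members were named in order of p, with some genes named whatever they showed; genes outside this rule were named after their values were seen. The promoter search, planned for called genes, was applied to the 23 named genes, and CACGTG was added after seeing the data. Some genes that these rules select are not reported here.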

Additional observations from a re-analysis of the deposited data

Results flagged for a closer look

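Of 115 genes checked, 8 had 1 ISO library far from the other 3 on the log2 scale (Dixon's test at the 95% level; chance alone marks about 1 in 20 groups). ISO day 14 replicate 2 was apart for Itga7 (211.8 CPM), for Esam, an endothelial and mural adhesion molecule (102.0 CPM), and for Mki67 (0 CPM). ISO day 21 replicate 1 was apart, on the low side for Col1a1 (2030.4 CPM), for Adamts2, a procollagen protease (487.3 CPM), and for Agrn, a basement membrane proteoglycan (72 CPM). ISO day 21 replicate 2 was apart for Cxcl14 (296.8 CPM) and Bhlhe41, a clock repressor (11.3 CPM).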

How the results depend on the processing

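With 2 libraries a group, precision was limited throughout. Against 0 calls of the pooled comparison, DESeq2 gave 5, no filter on low counts 8 and limma voom 1; RLE scaling, a minimum of 5 CPM and the C57BL/6 libraries alone gave 0. Leaving out 1 library gave 0 to 9 calls in the fit to all libraries and 0 to 55 in the fit of C57BL/6 alone, with 55 without sham replicate 2 and 39 without ISO day 14 replicate 2, where the group left with 1 library is assumed to vary like the other groups. Day 14 had 7 with DESeq2, 4 without a filter, 1 with voom and 0 to 6 with a library left out; day 21 had 7, 21, 0 and 0 to 27; the difference between days had 13 with DESeq2, 19 without a filter and 0 to 1; and the difference between strains had 10, 23 and 0 to 109. The replicate block gave 0 calls in all 5 comparisons, and changed no other call. The cause of these changes was not tested.

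Of 115 genes, 12 changed sign when a library was left out of the fit to all libraries (lowest to highest log2 fold change, with the reported value in brackets): Col4a4 -0.10 to 0.70 (0.41), Plod1 -0.81 to 0.04 (-0.44), Zbtb16 -2.21 to 1.90 (-1.29), Fkbp5 -1.47 to 0.69 (-0.76), Bhlhe41 -0.20 to 1.86 (0.51), Nkain4 -0.34 to 0.72 (0.37), Tbx18 -0.82 to 0.13 (-0.35), Thy1 -0.55 to 0.16 (-0.14), Acta2 -1.07 to 0.22 (-0.44), Pdgfra -0.42 to 0.11 (-0.18), Tcf21 -0.11 to 0.23 (0.08) and Mki67 -1.92 to 8.89 (2.24). In the fit of C57BL/6 alone these ranges were the same except for Zbtb16 (-2.20 to 1.89), Fkbp5 (-1.46 to 0.69), Nkain4 (-0.37 to 0.73), Thy1 (-0.55 to 0.15), Acta2 (-1.09 to 0.22), Tcf21 (-0.10 to 0.23, with -0.06 without ISO day 14 replicate 1) and Mki67 (-2.03 to 8.99). All 23 genes named as higher or lower kept their sign in 20 alternatives, and their groups stayed apart in CPM by total counts. They had been chosen for groups that do not overlap, so leaving out a library could hardly reverse a sign. Their kept sign is thus no measure of robustness beside the 12 genes that changed.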
